A study of Bos taurus with 30 samples.

Results

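Epithelial and stromal cells of the bovine endometrium, the lining of the uterus, were compared without insulin. The comparison took 6 of the 30 libraries of the series, 3 of epithelial and 3 of stromal cells, which their labels place in the vehicle group of the insulin experiment. The cells were taken early in the luteal phase, from the uteri of cows (Bos taurus) that were not pregnant. Epithelial cells were grown in the upper chamber and stromal cells in the lower chamber of a microfluidic device, an endometrium-on-a-chip, on opposite sides of a porous membrane. Both cell types of all 6 libraries received medium with 5 mM glucose and the vehicle of the insulin solution, acetic acid in PBS, under flow for 72 hours. As a model, the device holds cells that were parted with a strainer and by their plating times, expanded in flasks and then lifted with trypsin, and the study calls the stromal population enriched rather than pure. The design names 3 biological replicates per group. The sources used here do not say which replicate came from which cow, or whether the cow or the day sets the replicate number, so p-values measure the spread between these samples, which may be technical.

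Endometrial epithelium lines the uterine lumen and the glands. Its cells are joined by tight junctions and desmosomes, rest on a basement membrane and secrete into the lumen. Stromal cells are fibroblasts that make the collagen matrix beneath this layer and send growth factors to it, and both cell types carry receptors for the ovarian steroids. The paragraphs below go from structural genes to regulators, matrix, signals between the layers, hormone and secretory functions, and last to the same contrast in separate libraries.

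The epithelial libraries held 12754316, 9678779 and 10661682 counted reads in replicates 1, 2 and 3, and the stromal libraries held 11433481, 11046542 and 9229446. Values below are CPM, the count per 1000000 reads counted in its library, and they are always given in the order of replicates 1, 2 and 3. CPM is not scaled by gene length, so it compares 1 gene between libraries and not 1 gene with another. Where no read was counted, the level may still be that of 3 counts, which was 0.235 to 0.325 CPM in these libraries, for counting error only. Log2 levels correlated across genes at r = 0.959 to 0.971 between epithelial libraries, at 0.959 to 0.978 between stromal libraries and at 0.618 to 0.775 between the cell types, where genes are not independent replicates.

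Markers of the other cell type were measured in each group, at levels that differed between libraries. Over 12 epithelial markers, the median level in the stromal libraries was 0.0937%, 3.61% and 0.0407% of the epithelial mean, and the summed level was 8.48, 285 and 4.44 CPM against 7311 CPM in epithelial cells. Stromal replicate 2 thus stood above the other stromal libraries, with 1.04% to 5.81% for each of the 12 markers. The 13 stromal markers had medians of 3.34%, 1.05% and 10.5% of the stromal mean when measured in epithelial libraries, with epithelial replicate 3 highest. None of the 13 stromal markers was at 0 in an epithelial library, while 2 and 5 of the 12 epithelial markers were at 0 in stromal replicates 1 and 3. In bulk RNA, fewer cells of a type and less RNA per cell cannot be told apart, and the part of these marker levels in the results was not tested.

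The keratin genes KRT19, KRT7, KRT8 and KRT18, which encode the intermediate filaments of simple epithelia, marked the epithelial libraries. KRT19 (ENSBTAG00000004905) had 2179, 1672 and 2076 CPM in the epithelial libraries and 3.67, 65.5 and 2.17 CPM in the stromal libraries. KRT7 (ENSBTAG00000016165) had 1463, 1411 and 1433 CPM and 1.31, 53.2 and 0.542 CPM, respectively. KRT8 (ENSBTAG00000000836) had 1004, 1137 and 841 against 0.525, 57.8 and 0.433 CPM. All 3 genes were high in every epithelial library, and their highest stromal value was in replicate 2. The groups did not overlap. Their log2 fold changes of epithelial against stromal cells were 7.94 (SE 1.45, adjusted p = 0.0100) for KRT19, 8.47 (SE 1.73, adjusted p = 0.0138) for KRT7 and 8.20 (SE 1.83, adjusted p = 0.018) for KRT8 (edgeR quasi-likelihood test, Benjamini-Hochberg adjusted). KRT18 (ENSBTAG00000001517) had a log2 fold change of 7.78 (SE 1.63, adjusted p = 0.0149). Without replicate 1, which leaves 2 pairs of which 1 holds stromal replicate 2, the adjusted p-values of these 4 genes were 0.0653, 0.0831, 0.0872 and 0.0866, and without replicate 3 that of KRT8 was 0.0626. KRT19 ranged from 6.81 to 9.46, KRT7 from 7.08 to 10.53, KRT8 from 6.70 to 10.84 and KRT18 from 6.67 to 10.45 with 1 replicate left out, moving most without replicate 2.

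In the stromal libraries, SPARC (ENSBTAG00000014835), which encodes a collagen-binding matrix protein, had 5257, 6431 and 6607 CPM, against 171, 68 and 412 CPM in the epithelial libraries. MMP2 (ENSBTAG00000019267), a gelatinase of the connective tissue, had 2708, 3621 and 3775 CPM in stromal and 191, 44.4 and 409 CPM in epithelial cells. VIM (ENSBTAG00000018463), the intermediate filament vimentin, had 4128, 3829 and 3789 CPM in stromal and 692, 661 and 647 CPM in epithelial cells. No stromal value of these genes fell within the epithelial range. SPARC and MMP2 were highest among the epithelial libraries in replicate 3, whereas VIM was level across the 3 epithelial libraries. The log2 fold changes were -5.22 (SE 0.60, adjusted p = 0.00289) for SPARC, -4.47 (SE 0.75, adjusted p = 0.00771) for MMP2 and -2.63 (SE 0.15, adjusted p = 0.000936) for VIM by the same test. The measured markers went with the labels: all 12 epithelial markers were called higher in epithelial cells (median log2 fold change 7.77) and all 13 stromal markers higher in stromal cells (median -4.78). Both marker lists were chosen with earlier results of these data known, so these counts are no separate support for the labels. Without replicate 1, 5 of the 12 epithelial markers were called. Without replicate 2 the epithelial median was 10.5, and without replicate 3 the stromal median was -5.60. SPARC ranged from -5.76 to -4.54 and MMP2 from -5.09 to -3.58 when 1 replicate was left out, with the widest move without replicate 2.

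**Figure D1:**
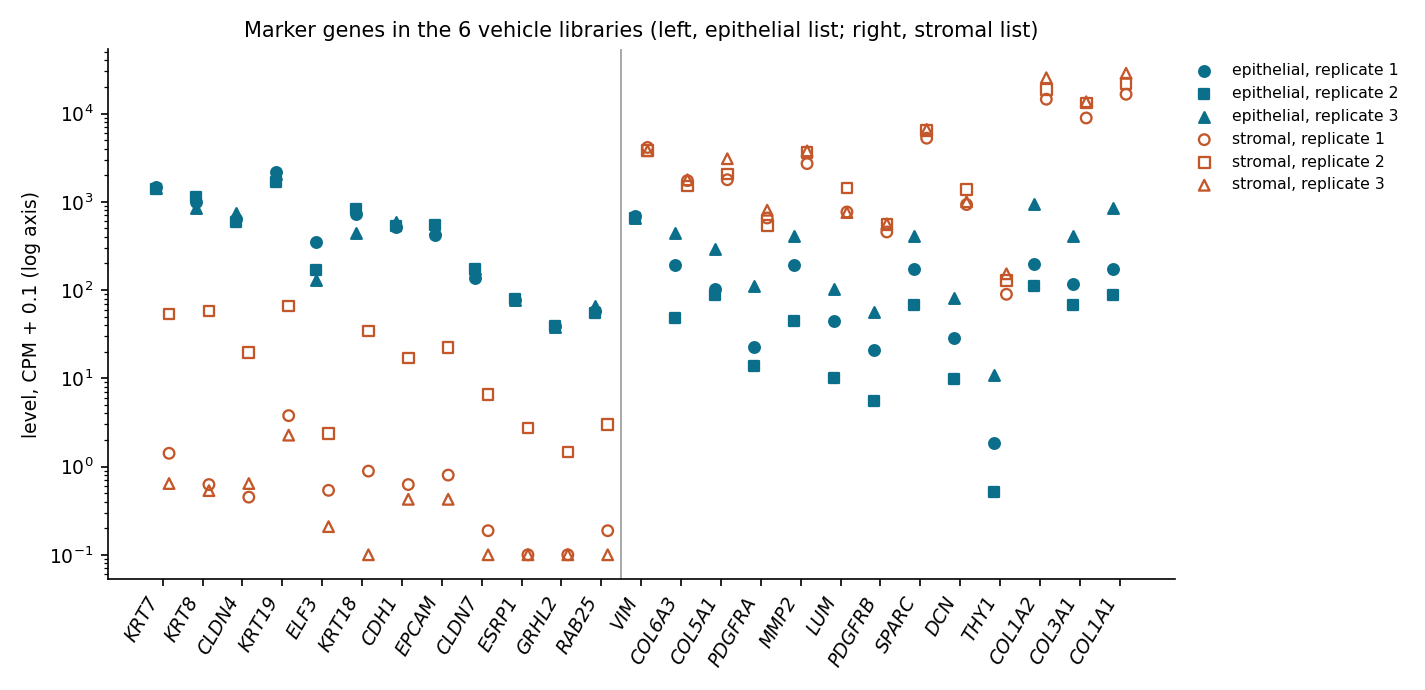
Levels of 12 epithelial and 13 stromal marker genes in the 6 vehicle libraries, as CPM + 0.1 on a log axis, where each point is 1 library. Epithelial markers sit at 0 to 65.5 CPM in stromal cells with stromal replicate 2 (open squares) above the other stromal libraries, and stromal markers are highest among the epithelial libraries in replicate 3 (filled triangles), apart from VIM, which is level across them.

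Of 13395 genes tested, 12876 were protein-coding. A gene was called at an adjusted p below 0.05 and a log2 fold change over 0.1 in size, with both values taken from the study's methods, which name no adjustment of p. By this rule 7200 protein-coding genes (55.9%) differed, 3626 (28.2%) toward epithelial and 3574 (27.8%) toward stromal cells. Since most genes passed this rule, a test of size was added that asks whether a difference is larger than 2-fold. It was passed by 1616 protein-coding genes (12.6%) higher in epithelial cells and by 1389 (10.8%) higher in stromal cells. The groups did not overlap in 2987 of these 3005 genes, which selection by this test favours, so that count is no separate support. Gene lists below are read against these percentages. The lists were chosen with earlier results of these data known, so their counts describe the libraries and test nothing. Over all protein-coding genes the median log2 fold change was -0.00223, and 608 genes were beyond 5 on the log2 scale. Without replicate 1 the test of size was passed by 1511 genes, and without replicates 2 and 3 by 2721 and 2583. Of 175 called genes named in the text, 106 had a fold that moved by over 1.5 times when 1 replicate was left out, 44 without replicate 1, 84 without replicate 2 and 65 without replicate 3. For those with a printed log2 fold change, its lowest and highest value with 1 replicate left out is given beside the result, with the replicate that moved it most.

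**Figure D2:**
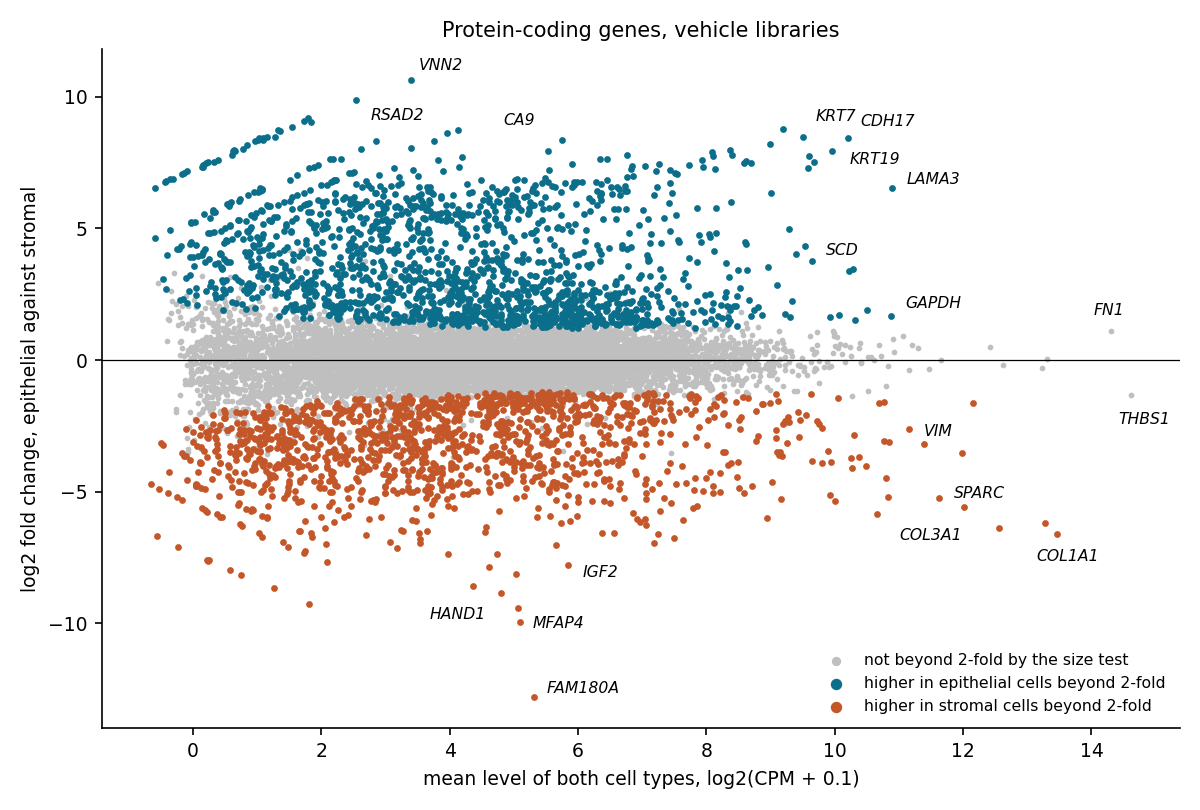
Log2 fold change of epithelial against stromal cells over the mean level of both, for each protein-coding gene tested in the 6 vehicle libraries. Coloured points passed the test of size, 1616 toward epithelial and 1389 toward stromal cells, and genes at 0 in a whole group, such as VNN2 and FAM180A, are drawn at a fitted value that depends on the prior count.

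Among protein-coding genes with a mean of at least 20 CPM in epithelial cells, the 10 with the largest fold included VNN2, SCEL, PADI1 and CDH17, where the place of VNN2 rests on a fitted value that depends on the prior count. VNN2 (ENSBTAG00000016357), a vanin enzyme that splits pantetheine, had 2.59, 24.8 and 35.2 CPM in epithelial cells and was at 0 in all 3 stromal libraries. Against a floor of 3 counts per library it was at least 72.8-fold higher in epithelial cells, where replicate 1 was lowest. SCEL (ENSBTAG00000032821), which encodes sciellin of the cornified envelope, had 1012, 1492 and 982 CPM in epithelial and 0.525, 31 and 0.108 CPM in stromal cells. PADI1 (ENSBTAG00000002138), a peptidylarginine deiminase that acts on keratins, had 23.5, 43.6 and 25.1 against 0.0875, 0.0905 and 0 CPM. CDH17 (ENSBTAG00000021964), a cadherin known from the intestine, had 2243, 2409.6 and 2339.9 against 2.54, 77.2 and 1.52 CPM. Every epithelial library was above every stromal library for these genes, and stromal replicate 2 held the highest stromal value of SCEL and CDH17. The log2 fold changes were 8.78 (SE 1.62, adjusted p = 0.0102) for SCEL, 8.63 (SE 0.32, adjusted p = 0.000899) for PADI1 and 8.43 (SE 1.57, adjusted p = 0.0105) for CDH17 (edgeR quasi-likelihood test, Benjamini-Hochberg adjusted). SCEL and CDH17 were not called without replicate 1, with adjusted p-values of 0.0653 and 0.0677. ANGPTL8, an inhibitor of lipoprotein lipase, reached 8.07 and KRT17, a keratin of stressed and basal cells, reached 8.33 on the log2 scale. SCEL ranged from 7.62 to 11.46, CDH17 from 7.19 to 10.08, ANGPTL8 from 7.68 to 10.51 and KRT17 from 7.2 to 11.66 over the fits without 1 replicate, farthest from the full fit without replicate 2. Without replicate 2, ANGPTL8 and KRT17 were at 0 in the remaining stromal libraries, and the fitted value depends on the prior count.

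On the stromal side, FAM180A (ENSBTAG00000017427) had 87.3, 61.6 and 88.6 CPM in stromal cells and was at 0 in all 3 epithelial libraries, a difference of at least 287-fold against a floor of 3 counts per library. MFAP4 (ENSBTAG00000006187), a glycoprotein of elastic microfibrils, had 86, 69.4 and 50.2 CPM in stromal and 0, 0 and 0.188 CPM in epithelial cells. HAND1 (ENSBTAG00000002335), a transcription factor of mesodermal tissues, had 58, 70.3 and 70.8 against 0, 0 and 0.281 CPM. IGF2 (ENSBTAG00000013066), insulin-like growth factor 2, had 135, 37.6 and 170.4 against 0.549, 0.62 and 0.375 CPM. Each was at or near 0 in the epithelial libraries, replicate 3 included, and the groups did not overlap. Log2 fold changes were -9.95 (SE 0.48, adjusted p = 0.000899) for MFAP4, -9.42 (SE 0.47, adjusted p = 0.000899) for HAND1 and -7.77 (SE 0.46, adjusted p = 0.000973) for IGF2. The other genes among the 10 with the largest stromal fold were the potassium channel gene KCNJ5 (-8.85), the WNT inhibitor gene DKK1 (-8.57), the elastin gene ELN (-8.12), the retinoic acid responsive RARRES1 (-7.87), the ephrin receptor gene EPHA5 (-7.36) and SUSD5 (-7.36). MFAP4 ranged from -12.78 to -9.20, HAND1 from -12.48 to -8.92, IGF2 from -8.36 to -7.14, KCNJ5 from -11.95 to -8.28, RARRES1 from -9.76 to -7.43 and EPHA5 from -9.36 to -6.62 with 1 replicate left out, moving most without replicate 3. DKK1 ranged from -9.95 to -7.57 and ELN from -8.67 to -7.47 when 1 replicate was left out, with the widest move without replicate 1. Without replicate 3, MFAP4, HAND1 and KCNJ5 were at 0 in the remaining epithelial libraries, and the fitted value depends on the prior count.

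In reads, which are not scaled by length, the largest differences between the cell types were those of COL1A1, THBS1, COL1A2, COL3A1 and COL12A1 on the stromal side and of FN1, LAMA3, CDH17, F3 and GAPDH on the epithelial side. COL1A1, the main chain of type I collagen, had 16538, 21901 and 28561 CPM in stromal and 175, 88.6 and 847 CPM in epithelial cells. FN1, which encodes fibronectin, had 27945, 34220.4 and 21851 CPM in epithelial and 12014, 14536 and 10506 CPM in stromal cells. THBS1, the matrix protein thrombospondin 1, had 12116, 17859 and 14646 CPM in epithelial and 27097, 34361 and 44328 CPM in stromal cells. Fibronectin was thus present in both cell types and higher in the epithelial vehicle libraries without overlap, and thrombospondin was higher in the stromal vehicle libraries without overlap. The log2 fold changes were -6.60 (SE 0.71, adjusted p = 0.00248) for COL1A1, 1.09 (SE 0.20, adjusted p = 0.00987) for FN1 and -1.31 (SE 0.25, adjusted p = 0.011) for THBS1. Neither FN1 nor THBS1 was called without replicate 1, with adjusted p-values of 0.0768 and 0.0621. Neither passed the test of size. In the 5 mM glucose libraries of the series their log2 fold changes were -0.24 and -0.34, so FN1 had the opposite sign there. F3, the tissue factor that starts blood clotting, had 1769.6, 2672 and 2373 CPM in epithelial and 82, 395 and 208 CPM in stromal cells, a log2 fold change of 3.48 (SE 0.41, adjusted p = 0.00308). COL1A1 ranged from -7.26 to -5.88 over the fits without 1 replicate, farthest from the full fit without replicate 2.

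Junction genes set the epithelial libraries apart. Of 20 tested genes of tight junctions, which seal the space between cells, 15 were called higher in epithelial cells and 1 higher in stromal cells (median 5.24). CLDN4, a sealing claudin, had 641, 587 and 741 CPM in epithelial and 0.35, 19.6 and 0.542 CPM in stromal cells. OCLN, which encodes occludin, had 66.4, 109 and 121 against 0.0875, 3.26 and 0 CPM. Both were high in all epithelial libraries, with the highest stromal value in replicate 2. Log2 fold changes were 7.99 (SE 1.50, adjusted p = 0.0108) for CLDN4, 6.58 (SE 0.87, adjusted p = 0.00407) for OCLN, 6.91 for CLDN3 and 6.71 for CLDN7. The single tight junction gene called toward stromal cells, JAM2, was at the threshold (-1.04, SE 0.33, adjusted p = 0.0497), and it was not called without replicate 1 or 2 (adjusted p = 0.193 and 0.152), with library totals in place of TMM factors (adjusted p = 0.075) or with DESeq2's size factors (adjusted p = 0.0512). CLDN4 ranged from 6.88 to 10.52, OCLN from 5.92 to 10.49, CLDN3 from 6.14 to 10.63 and CLDN7 from 5.99 to 11.27 with 1 replicate left out, moving most without replicate 2.

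Of 21 genes of desmosomes and adherens junctions, 14 were called toward epithelial and 5 toward stromal cells (median 1.68), and the cadherins divided by cell type. Calls took 28.2% and 27.8% of all protein-coding genes in these directions. CDH1, E-cadherin, had 515, 535 and 588 CPM in epithelial and 0.525, 16.9 and 0.325 CPM in stromal cells. CDH11, the cadherin of fibroblasts, had 16.3, 5.37 and 48.2 CPM in epithelial and 543, 511 and 531 CPM in stromal cells. CDH13, a cadherin held by a lipid anchor, had 1.88, 1.14 and 3.28 against 195, 197 and 167 CPM. E-cadherin was thus high in the epithelial libraries, while CDH11 and CDH13 were below every stromal library in all of them and highest there in replicate 3. Their log2 fold changes were 7.76 (SE 1.37, adjusted p = 0.00902), -5.04 (SE 0.67, adjusted p = 0.00414) and -6.57 (SE 0.35, adjusted p = 0.000914), respectively. CDH2, N-cadherin, had overlapping groups (-1.12, SE 0.56, adjusted p = 0.152), and only without replicate 3 was it called toward stromal cells, at -1.78 with an adjusted p of 0.0354. DSP, which ties keratin to desmosomes, had 7.24, NECTIN4 6.64 and PKP3 6.41 on the log2 scale. Without replicate 1, CLDN4, CDH1 and DSP were not called, with adjusted p-values of 0.0578, 0.0568 and 0.0731. CDH1 ranged from 6.79 to 10.21, CDH11 from -5.78 to -4.31, DSP from 6.18 to 9.41, NECTIN4 from 5.89 to 9.59 and PKP3 from 5.66 to 12.79 when 1 replicate was left out, with the widest move without replicate 2. Without replicate 2, PKP3 was at 0 in the remaining stromal libraries, and the fitted value depends on the prior count.

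Of 16 genes of apical-basal polarity and the apical membrane, 15 were called toward epithelial cells, 14 of them beyond 2-fold, with a median of 5.88. MAL2, which sorts proteins to the apical membrane, had 781, 861 and 803 CPM in epithelial and 2.62, 30.1 and 0.325 CPM in stromal cells. ST14, the membrane protease matriptase, had 188, 230.0 and 227 against 0.0875, 8.15 and 0.108 CPM. SCIN, an actin-severing protein, had 125, 127 and 126 against 0.0875, 3.89 and 0 CPM. The 3 genes followed the keratins, with no overlap of the groups and the highest stromal value in replicate 2, at log2 fold changes of 7.48 (SE 1.33, adjusted p = 0.00922), 6.94 (SE 1.17, adjusted p = 0.00783) and 6.77 (SE 0.98, adjusted p = 0.00515) by the edgeR quasi-likelihood test, Benjamini-Hochberg adjusted. Without replicate 1 the adjusted p of MAL2 was 0.0706. The single member called toward stromal cells was MARVELD1 (-1.99, SE 0.11, adjusted p = 0.000914). Of 11 genes of intermediate filaments, 8 keratins were called toward epithelial cells, and DES (-5.22) and VIM toward stromal cells. Without replicate 1, the number of keratins called toward epithelial cells was 3. MAL2 ranged from 6.37 to 9.04, ST14 from 6.20 to 10.83 and SCIN from 6.10 to 11 over the fits without 1 replicate, farthest from the full fit without replicate 2. DES ranged from -6.05 to -4.62 with 1 replicate left out, moving most without replicate 3.

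Transcription factors and RNA-binding proteins known to hold epithelial identity followed the junction genes. Of 20 tested, 18 were called toward epithelial cells and 17 of them beyond 2-fold (median 5.80). ELF3, an ETS factor of simple epithelia, had 352, 167 and 131 CPM in epithelial and 0.437, 2.26 and 0.108 CPM in stromal cells. FOXA2, a forkhead factor required for uterine glands, had 16.6, 4.03 and 5.82 CPM in epithelial cells and 0, 0.0905 and 0 CPM in stromal cells. The ETS factor gene EHF had 291, 391 and 393 against 0.787, 15.2 and 0 CPM. ELF3 and FOXA2 were highest in epithelial replicate 1 and EHF was lowest there, and no group overlapped. Their log2 fold changes were 7.79 (SE 0.78, adjusted p = 0.00212) for ELF3, 7.66 (SE 0.70, adjusted p = 0.00181) for FOXA2 and 7.11 (SE 1.32, adjusted p = 0.0103) for EHF (edgeR quasi-likelihood test, Benjamini-Hochberg adjusted). TFAP2A was the member called toward stromal cells (-2.32, SE 0.42, adjusted p = 0.00957). ELF3 ranged from 6.95 to 9.73, FOXA2 from 6.16 to 10.05 and EHF from 6.11 to 9.53 when 1 replicate was left out, with the widest move without replicate 2. Without replicate 2, FOXA2 was at 0 in the remaining stromal libraries, and the fitted value depends on the prior count.

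Factors linked to mesenchymal cells lay on the other side, with 21 of 23 called toward stromal cells, 18 beyond 2-fold and 0 toward epithelial cells (median -3.18). HAND2, which in the uterus acts downstream of progesterone in the stroma, had 17.6, 16.8 and 22.2 CPM in stromal and 0.157, 0.103 and 0.375 CPM in epithelial cells. TBX18 had 111, 199.9 and 182 against 3.45, 1.55 and 8.63 CPM. WT1, a factor of urogenital mesenchyme, had 25.3, 26.3 and 21.7 against 0.706, 0.207 and 1.31 CPM. All 3 were near 0 to single-digit CPM in epithelial cells, with replicate 3 highest there. Log2 fold changes were -6.50 (SE 0.29, adjusted p = 0.000899), -5.37 (SE 0.53, adjusted p = 0.0021) and -5.10 (SE 0.44, adjusted p = 0.00159). FOXF2 followed at -4.84. OSR1, a zinc finger factor of intermediate mesoderm, had overlapping groups and was not called (0.42, SE 0.23, adjusted p = 0.186). TBX18 ranged from -5.86 to -4.75 over the fits without 1 replicate, farthest from the full fit without replicate 2. WT1 ranged from -5.71 to -4.62 with 1 replicate left out, moving most without replicate 3. FOXF2 ranged from -5.98 to -4.24 when 1 replicate was left out, with the widest move without replicate 1.

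Regulators of alternative splicing with cell type roles split, with 7 of 15 called toward epithelial (4 without replicate 1) and 6 toward stromal cells. Shares of all protein-coding genes were 28.2% and 27.8%. ESRP1, which sets epithelial splice patterns, had 76.1, 78.5 and 77.7 CPM in epithelial and 0, 2.63 and 0 CPM in stromal cells. RBM47 had 172, 226 and 227 against 0.525, 9.32 and 0 CPM. QKI, a splicing factor of mesenchymal cells, had 56.9, 50.6 and 70.0 CPM in epithelial and 129.9, 119 and 179 CPM in stromal cells. The first 2 genes were close to absent from stromal replicates 1 and 3, whereas QKI was present in all 6 libraries and lower in the epithelial ones. The fitted log2 fold changes were 6.53 (SE 0.92, adjusted p = 0.00475) for ESRP1, 6.63 (SE 1.12, adjusted p = 0.00798) for RBM47 and -1.34 (SE 0.12, adjusted p = 0.00172) for QKI. ESRP2, which the authors' table types as a pseudogene, had 5.79 (SE 0.23, adjusted p = 0.000899), and MBNL3 had 4.20. EHF and RBM47 were not called without replicate 1, with adjusted p-values of 0.075 and 0.0588. PTBP1, a repressor of exon inclusion, was not called (0.38, SE 0.13, adjusted p = 0.0626), and it was called toward epithelial cells without the replicate block (adjusted p = 0.042), with library totals (adjusted p = 0.0258) and by DESeq2 (adjusted p = 0.0474). ESRP1 ranged from 5.85 to 12.71 and RBM47 from 5.81 to 9.31 over the fits without 1 replicate, farthest from the full fit without replicate 2. MBNL3 ranged from 3.68 to 4.90 with 1 replicate left out, moving most without replicate 1. Without replicate 2, ESRP1 was at 0 in the remaining stromal libraries, and the fitted value depends on the prior count.

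HOX genes, the homeobox genes whose order along each cluster follows their order of use along the body axis, differed by cluster and, in the A cluster, between low and high gene numbers. In the reproductive tract, the posterior genes HOXA10 and HOXA11 are known for their part in uterine development and receptivity. Of 31 HOX genes tested, 13 were called toward epithelial and 15 toward stromal cells, 13 and 14 beyond 2-fold. For all protein-coding genes the shares were 28.2% and 27.8%, with 12.6% and 10.8% beyond 2-fold. HOXA2 to HOXA5 and all 8 tested genes of the B cluster, HOXB2 to HOXB9, were higher in epithelial cells, with log2 fold changes from 1.78 for HOXA5 to 6.40 for HOXB5. The tested genes from HOXA7 to HOXA13, from HOXC6 to HOXC10 and from HOXD3 to HOXD11 were higher in stromal cells, from -2.06 for HOXC8 to -5.24 for HOXD4. HOXC8 was not called without replicate 1 or 2 (adjusted p of 0.169 and 0.0843). HOXB8 had 27, 28.6 and 28.1 CPM in epithelial and 0.35, 1.09 and 0.217 CPM in stromal cells. HOXA10 had 1.72, 0.31 and 1.5 CPM in epithelial and 35.5, 34.2 and 24.3 CPM in stromal cells. HOXA11 had 0.784, 0.413 and 2.44 against 26.2, 36.4 and 26.3 CPM. Neither these posterior genes nor HOXB8 overlapped between the groups, and the highest stromal value of HOXB8 was in replicate 2. The log2 fold changes were 5.56 (SE 0.40, adjusted p = 0.00123) for HOXB8, -4.77 (SE 0.45, adjusted p = 0.00189) for HOXA10 and -4.73 (SE 0.50, adjusted p = 0.00246) for HOXA11. Between the blocks of the A cluster, HOXA6 was not called (-0.72, SE 0.34, adjusted p = 0.131), nor were HOXC4 (-0.012, SE 0.39, adjusted p = 0.982) and HOXC5 (0.12, SE 0.38, adjusted p = 0.802), each under 5 CPM on average in both cell types apart from HOXA6 in stromal cells. HOXC11 was too low to test, and no gene symbol of the table matched HOXD1 or HOXD13. HOXB5 ranged from 6.04 to 8.09 and HOXB8 from 5.26 to 6.47 when 1 replicate was left out, with the widest move without replicate 2. HOXC8 ranged from -2.77 to -1.71 and HOXA11 from -5.60 to -4.19 over the fits without 1 replicate, farthest from the full fit without replicate 3. Without replicate 2, HOXB5 was at 0 in the remaining stromal libraries, and the fitted value depends on the prior count.

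**Figure D3:**
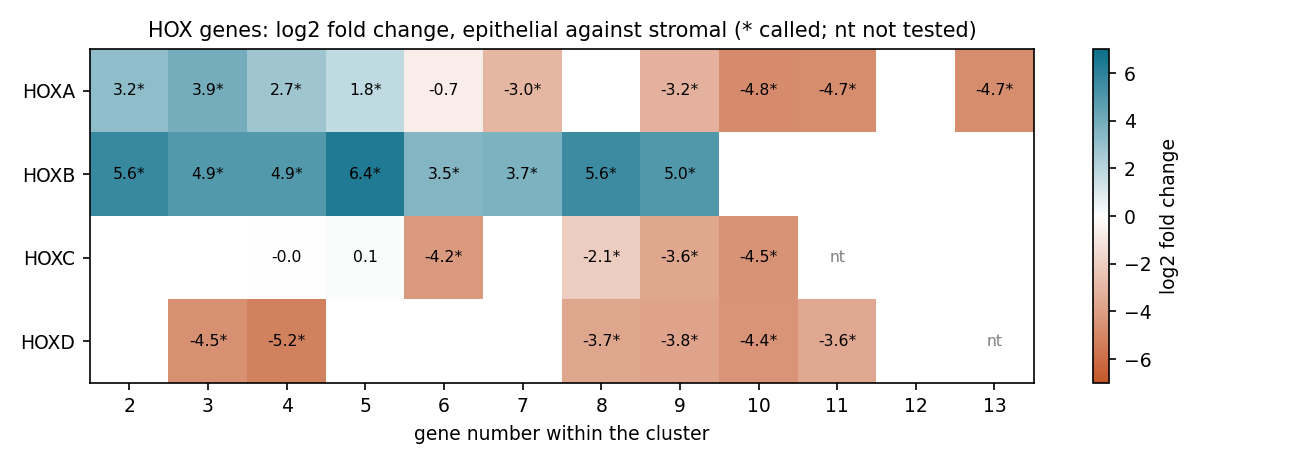
Log2 fold change of epithelial against stromal cells for HOX genes numbered 2 to 13 (colour and number), by cluster (rows) and gene number (columns). Low-numbered A genes and all B genes are positive (higher in epithelial cells), while high-numbered A genes and called C and D genes are negative; a star marks a called gene and nt a gene that was not tested.

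Genes of the fibrous matrix lay mostly on the stromal side. Of 16 interstitial collagen genes, 14 were called toward stromal cells, all beyond 2-fold, and 1 toward epithelial cells (median -4.00). COL11A1, a fibril-forming minor collagen, had 301, 390.3 and 379 CPM in stromal and 1.33, 3.31 and 7.69 CPM in epithelial cells. COL3A1, the type III collagen gene, had 8907, 13110.5 and 13609.5 against 118, 68.4 and 407 CPM. In COL3A1 the epithelial values were highest in replicate 3, as in the other stromal markers, whereas COL11A1 was under 10 CPM in each epithelial library. Fitted log2 fold changes were -6.75 (SE 0.45, adjusted p = 0.00107) and -6.36 (SE 0.62, adjusted p = 0.00202), respectively. COL27A1, another fibrillar collagen, went the other way, with 109, 131 and 110.3 CPM in epithelial and 10.7, 20.4 and 14.8 CPM in stromal cells (2.89, SE 0.20, adjusted p = 0.00113). COL3A1 ranged from -6.91 to -5.71 with 1 replicate left out, moving most without replicate 2.

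Among 26 matrix glycoproteins and proteoglycans, 24 were called toward stromal cells and FN1 alone toward epithelial cells (median -3.89). ELN, elastin, had 65.5, 16 and 114 CPM in stromal and 0, 0.207 and 0.563 CPM in epithelial cells. DCN, decorin, which binds collagen fibrils, had 931, 1382 and 1000.0 against 28.5, 9.61 and 81.8 CPM. Elastin was lowest of the stromal libraries in replicate 2, and decorin was highest there. On the log2 scale the fold changes were -8.12 (SE 0.50, adjusted p = 0.000978) for ELN, -5.27 (SE 0.80, adjusted p = 0.00588) for DCN and -5.30 for the proteoglycan gene PRELP. Of 20 genes that modify, cleave and cross-link collagen, 15 were called toward stromal cells, led by P4HA3, a prolyl hydroxylase subunit (-6.92), PCOLCE, which enhances procollagen cleavage (-4.67), and ADAMTS2, a procollagen protease (-4.25). P4HA1, P4HA2, PLOD1 and BMP1 were not called, with log2 fold changes from -0.43 to 0.57. BMP1, a procollagen protease, was called toward epithelial cells without replicate 2 (adjusted p = 0.0126), without the block (adjusted p = 0.0284), with either other scaling (adjusted p = 0.0479 and 0.0357) and by DESeq2 (adjusted p = 0.0266). Without replicate 1, ADAMTS2 was not called (adjusted p = 0.0549), and 9 interstitial collagens and 14 glycoproteins and proteoglycans were called toward stromal cells. DCN ranged from -6.08 to -4.38 and ADAMTS2 from -4.97 to -3.42 when 1 replicate was left out, with the widest move without replicate 2. PRELP ranged from -6.23 to -4.69 and P4HA3 from -9.19 to -6.21 over the fits without 1 replicate, farthest from the full fit without replicate 3. ELN ranged from -8.67 to -7.47 with 1 replicate left out, moving most without replicate 1. Without replicate 3, P4HA3 was at 0 in the remaining epithelial libraries, and the fitted value depends on the prior count.

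Basement membrane genes were divided between the layers, with 9 of 22 called toward epithelial and 12 toward stromal cells. Among all protein-coding genes 28.2% and 27.8% were called in these directions. LAMA3 and LAMB3, which encode chains of a laminin that anchors epithelia to the basement membrane, were epithelial. LAMA3 had 4583, 2585 and 4064 CPM in epithelial and 20.1, 137 and 23.1 CPM in stromal cells. LAMB3 had 1650.2, 1517 and 1650.0 against 3.32, 67.2 and 3.03 CPM. Both were high in each epithelial library and showed their highest stromal value in replicate 2. Their log2 fold changes were 6.52 (SE 1.00, adjusted p = 0.00591) and 7.51 (SE 1.33, adjusted p = 0.00905), respectively (edgeR quasi-likelihood test, Benjamini-Hochberg adjusted), and without replicate 1 LAMB3 had an adjusted p of 0.0564. NID2 and COL4A1, a nidogen and a common chain of type IV collagen, which build the sheet itself, were stromal. NID2 had 2759.7, 4398 and 3409.8 CPM in stromal and 98.9, 46.5 and 196 CPM in epithelial cells. COL4A1 had 2469, 2262 and 3344 against 176, 125 and 236 CPM. These 2 genes had no overlap, at -5.21 (SE 0.59, adjusted p = 0.00275) and -4.02 (SE 0.18, adjusted p = 0.000899), while COL4A3, of a minor type IV network, was epithelial (4.75, SE 0.21, adjusted p = 0.000899). HSPG2, perlecan, had overlapping groups (-0.22, SE 0.15, adjusted p = 0.262). LAMA3 ranged from 5.68 to 7.58, LAMB3 from 6.50 to 8.96 and NID2 from -5.69 to -4.52 when 1 replicate was left out, with the widest move without replicate 2.

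Receptors for the matrix divided likewise: of 17 integrin genes, 7 were called toward epithelial and 8 toward stromal cells. The background shares of all protein-coding genes were 28.2% and 27.8%. ITGB4, the partner of the laminin receptor chain ITGA6 in hemidesmosomes, had 1411, 1399 and 1710.0 CPM in epithelial and 3.94, 58.5 and 3.58 CPM in stromal cells. ITGB6, an epithelial chain that binds latent TGF-beta, had 499, 753 and 366 against 0.35, 14.9 and 0.217 CPM. ITGA11, a collagen receptor chain of fibroblasts, had 19, 29.3 and 26.4 CPM in stromal and 0.47, 0.207 and 1.78 CPM in epithelial cells. Each chain was low in every library of the other cell type, apart from ITGB4 and ITGB6 in stromal replicate 2. The corresponding log2 fold changes were 7.29 (SE 1.20, adjusted p = 0.00733) for ITGB4, 7.90 (SE 1.20, adjusted p = 0.00576) for ITGB6 and -5.06 (SE 0.50, adjusted p = 0.00204) for ITGA11, and without replicate 1 the adjusted p of ITGB4 was 0.0511. ITGB5, of a vitronectin receptor, was not called (-0.24, SE 0.19, adjusted p = 0.335). ITGB4 ranged from 6.42 to 8.62 and ITGB6 from 7.06 to 10.48 over the fits without 1 replicate, farthest from the full fit without replicate 2. ITGA11 ranged from -6.0 to -4.52 with 1 replicate left out, moving most without replicate 3.

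Among matrix metalloproteinases and their inhibitors, 5 of 16 were called toward epithelial (1 without replicate 1) and 7 toward stromal cells. Of all protein-coding genes, 28.2% and 27.8% were called in these directions. MMP7, matrilysin, a small epithelial protease, had 215, 441 and 359 CPM in epithelial and 0.525, 40.1 and 0.758 CPM in stromal cells. MMP13, a collagenase, had 21.7, 123 and 342 against 0.175, 6.7 and 0 CPM, with a wide spread between the epithelial libraries. MMP19 (-4.18) and the membrane inhibitor RECK (-4.10) were stromal beside MMP2. MMP7 and MMP13 had log2 fold changes of 6.33 (SE 1.35, adjusted p = 0.0157) and 6.10 (SE 1.21, adjusted p = 0.0127), and without replicate 1 their adjusted p-values were 0.0832 and 0.0805. MMP3, stromelysin, had overlapping groups (-1.62, SE 0.95, adjusted p = 0.208). MMP7 ranged from 5.27 to 8.69 and MMP13 from 4.66 to 10.30 when 1 replicate was left out, with the widest move without replicate 2. MMP19 ranged from -4.94 to -3.81 and RECK from -4.72 to -3.85 over the fits without 1 replicate, farthest from the full fit without replicate 3.

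Growth factors and their receptors were placed in opposite layers for several families. PDGFB, a ligand of the PDGF receptors, had 194, 145 and 146 CPM in epithelial and 0, 2.35 and 0.108 CPM in stromal cells. Its receptor gene PDGFRB had 455, 551 and 562 CPM in stromal and 20.9, 5.48 and 56.4 CPM in epithelial cells, and PDGFRA had 655, 542 and 803 against 22.3, 13.7 and 111 CPM. The ligand was thus epithelial and both receptors stromal, without overlap, at 7.65 (SE 0.94, adjusted p = 0.00334) for PDGFB, -4.78 (SE 0.73, adjusted p = 0.00595) for PDGFRB and -4.43 (SE 0.55, adjusted p = 0.00349) for PDGFRA. In the VEGF family, VEGFA was epithelial (2.07, SE 0.14, adjusted p = 0.00107), and the receptor genes FLT1 (-3.92, SE 0.25, adjusted p = 0.00105) and NRP1 (-5.43, SE 0.49, adjusted p = 0.00176) were stromal. PDGFB ranged from 6.82 to 11.46 and PDGFRB from -5.49 to -3.93 with 1 replicate left out, moving most without replicate 2. PDGFRA ranged from -5.09 to -3.91 when 1 replicate was left out, with the widest move without replicate 3.

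Ligands and receptors of the EGF family were in the same layer. AREG, amphiregulin, had 47, 83.2 and 66.5 CPM in epithelial and 0, 1.54 and 0.108 CPM in stromal cells. ERBB3 had 267, 266 and 346 against 0.35, 8.42 and 0.325 CPM. EGFR had 216, 191 and 167 against 47.7, 54.4 and 41.5 CPM, so it was present in stromal cells too. The fitted log2 fold changes were 6.88 (SE 0.64, adjusted p = 0.00185) for AREG, 7.18 (SE 1.12, adjusted p = 0.00624) for ERBB3, 1.92 (SE 0.14, adjusted p = 0.00127) for EGFR and 2.14 for ERBB2, and the ligands TGFA and NRG1 had 5.18 and 5.39. NRG1 stands under 2 gene IDs in the table, of which the one with more counts was used. AREG ranged from 6.38 to 9.80, ERBB3 from 6.41 to 9.69, TGFA from 4.73 to 5.96 and NRG1 from 4.71 to 6.90 over the fits without 1 replicate, farthest from the full fit without replicate 2.

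Toward stromal cells, FGF10, a mesenchymal factor that acts on epithelia, had 6.47, 8.78 and 9.86 CPM in stromal and 0.235, 0 and 0.281 CPM in epithelial cells. FGF2 had 382, 602 and 718 against 42.7, 28.1 and 110.3 CPM. HGF, hepatocyte growth factor, had 3.41, 6.61 and 2.93 against 0.235, 0.207 and 1.22 CPM, and its receptor gene MET had 737, 817 and 609 CPM in epithelial and 114, 70.5 and 30.8 CPM in stromal cells. HGF and MET were therefore in opposite layers, and HGF was at a few CPM at most. Fitted log2 fold changes were -5.52 (SE 0.55, adjusted p = 0.00212) for FGF10, -3.49 (SE 0.39, adjusted p = 0.00265) for FGF2, -3.05 (SE 0.71, adjusted p = 0.0201) for HGF and 3.43 (SE 0.31, adjusted p = 0.00171) for MET. FGF7, keratinocyte growth factor, had 53.3, 69.5 and 14.1 CPM in stromal and 2.27, 1.76 and 10.7 CPM in epithelial cells, and its receptor gene FGFR2 had 57.5, 51.8 and 22.6 CPM in epithelial and 40.1, 30.1 and 44.9 CPM in stromal cells with overlap. FGF7 was close to the threshold (-3.34, SE 1.05, adjusted p = 0.0488) and was not called without replicate 1 or 2, at 0.219 and 0.109. HGF was not called without replicate 1 (adjusted p = 0.0991). FGFR2 was not called (0.051, SE 0.41, adjusted p = 0.924), and without replicate 3 it was called toward epithelial cells at 0.64 (adjusted p = 0.0267). Of all 23 ligands, 10 were called toward epithelial and 12 toward stromal cells (7 without replicate 1), and of 15 receptors 5 and 6, respectively. The shares over all protein-coding genes were 28.2% and 27.8%. HGF ranged from -4.36 to -2.35 and FGF7 from -4.89 to -2.39 with 1 replicate left out, moving most without replicate 3.

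**Figure D4:**
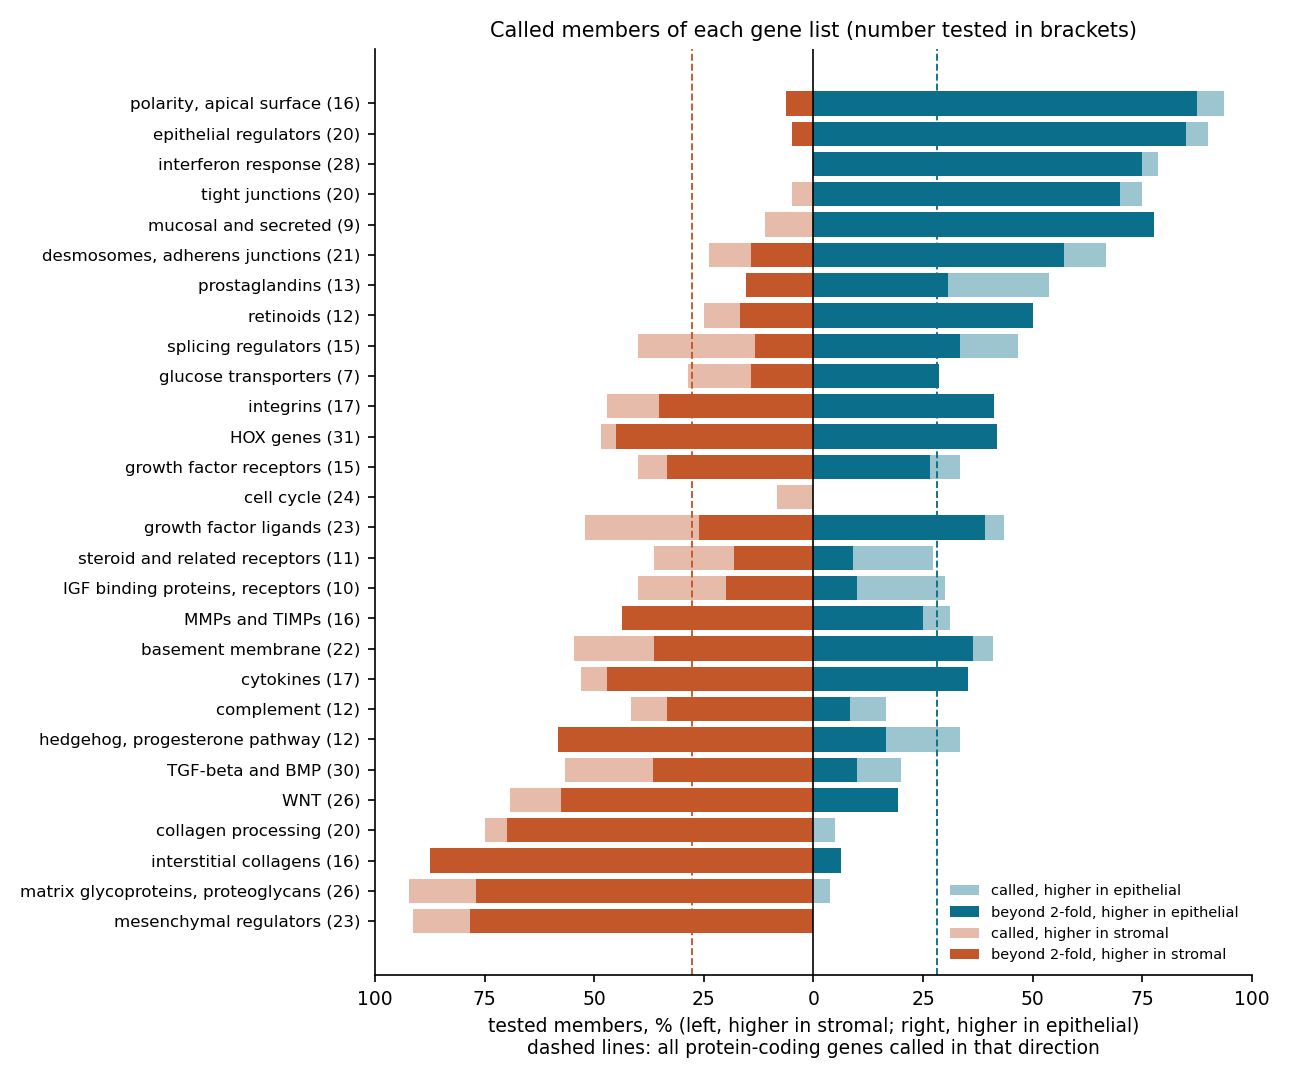
Percentage of tested members of each gene list called higher in stromal (left) or epithelial cells (right), with the darker part for members beyond 2-fold and the number tested in brackets. Dashed lines mark the 28.2% and 27.8% of all protein-coding genes called in each direction: junction, polarity, epithelial regulator and interferon response lists extend far to the right, and collagen, matrix and mesenchymal regulator lists far to the left.

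WNT signalling, which patterns glands and stroma of the uterus, was weighted to the stromal side, with 18 of 26 genes called toward stromal and 5 toward epithelial cells (median -3.23). Protein-coding genes as a whole had 27.8% and 28.2% in that order. WNT7A, a ligand of the uterine luminal epithelium, had 51, 58.4 and 59.9 CPM in epithelial and 0, 1.99 and 0 CPM in stromal cells. WNT2 had 113, 93.3 and 94.3 CPM in stromal and 0.706, 0 and 1.78 CPM in epithelial cells. DKK1, a secreted inhibitor, had 9.27, 85.3 and 28.4 against 0.157, 0.103 and 0 CPM, and it was lowest in stromal replicate 1. The ligands were thus split by layer, with WNT7A at 6.40 (SE 0.85, adjusted p = 0.00405) and WNT2 at -7.03 (SE 0.61, adjusted p = 0.00162), and DKK1 had -8.57 (SE 0.55, adjusted p = 0.00105). SFRP2, a WNT-binding protein, and RSPO3, which amplifies WNT signals, were stromal at -6.93 and -6.50, while WNT7B (4.87), the frizzled receptor gene FZD6 (2.16) and the R-spondin receptor gene LGR4 (1.33) were epithelial. WNT7A ranged from 5.77 to 12.22 and WNT7B from 4.39 to 6.83 when 1 replicate was left out, with the widest move without replicate 2. WNT2 ranged from -8.05 to -6.48, SFRP2 from -7.69 to -6.37 and RSPO3 from -7.37 to -6.19 over the fits without 1 replicate, farthest from the full fit without replicate 3. DKK1 ranged from -9.95 to -7.57 with 1 replicate left out, moving most without replicate 1. Without replicate 2, WNT7A was at 0 in the remaining stromal libraries, and the fitted value depends on the prior count.

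In the TGF-beta and BMP family, 6 of 30 genes were called toward epithelial and 17 toward stromal cells. All protein-coding genes had shares of 28.2% and 27.8% in these directions. BMP7 had 43.6, 36.3 and 24 CPM in epithelial and 2.19, 1.27 and 0.217 CPM in stromal cells. INHBB, an activin and inhibin subunit, had 48.1, 59.8 and 76.3 against 1.84, 3.71 and 2.06 CPM. GREM1, a secreted BMP antagonist, had 188, 308 and 295 CPM in stromal and 7.45, 0.62 and 3.94 CPM in epithelial cells. BMP7, INHBB and GREM1 did not overlap between the groups, at 4.82 (SE 0.33, adjusted p = 0.00111) for BMP7, 4.51 (SE 0.25, adjusted p = 0.000936) for INHBB and -6.26 (SE 0.86, adjusted p = 0.00436) for GREM1. The antagonist NOG (-7.08) and the ligands TGFB3 (-3.91) and BMP4 (-2.96) were stromal, and TGFBR2 (1.82) was epithelial. FST, follistatin, which binds activin, had 227, 352 and 287 CPM in epithelial and 166, 97.1 and 18.4 CPM in stromal cells and was not called (1.96, SE 0.68, adjusted p = 0.0629), though it was without replicate 1 (adjusted p = 0.0494) and by DESeq2 (adjusted p = 0.0339). NOG ranged from -8.75 to -6.70 when 1 replicate was left out, with the widest move without replicate 3. GREM1 ranged from -7.42 to -5.43 over the fits without 1 replicate, farthest from the full fit without replicate 1. Without replicate 3, NOG was at 0 in the remaining epithelial libraries, and the fitted value depends on the prior count.

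Indian hedgehog is the epithelial signal by which progesterone reaches the uterine stroma. IHH had 13.9, 11.7 and 14.8 CPM in epithelial and 0, 1.09 and 0.108 CPM in stromal cells. SMO, which passes the hedgehog signal into the cell, had 102, 136 and 91.2 CPM in stromal and 4.16, 1.34 and 12.7 CPM in epithelial cells. GLI2, a transcription factor of the pathway, had 10.5, 6.61 and 9.86 against 0.549, 0.413 and 0.938 CPM. IHH and the pathway genes SMO and GLI2 lay in opposite layers, at 5.01 (SE 0.82, adjusted p = 0.00732) for IHH, -4.51 (SE 0.71, adjusted p = 0.00654) for SMO and -3.91 (SE 0.27, adjusted p = 0.00111) for GLI2. PTCH1, the hedgehog receptor, overlapped between the groups and was close to the threshold (0.48, SE 0.14, adjusted p = 0.0397), and it was called neither without a replicate (adjusted p = 0.0776 to 0.134) nor without the replicate block (adjusted p = 0.0532). MSX1, a homeobox factor, was epithelial (4.44). SMO had an adjusted p of 0.0536 without replicate 1. IHH ranged from 4.26 to 7.85 with 1 replicate left out, moving most without replicate 2. SMO ranged from -5.43 to -3.74 when 1 replicate was left out, with the widest move without replicate 3.

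Of 11 genes of steroid hormone and related receptors, 3 were called toward epithelial and 4 toward stromal cells, shares near those of all protein-coding genes. ESR1, the estrogen receptor, had 67.2, 72.2 and 69.8 CPM in epithelial and 37.8, 27.2 and 30.0 CPM in stromal cells. PGR, the progesterone receptor, had 11.7, 8.16 and 11.2 CPM in epithelial and 16.6, 13.7 and 17.2 CPM in stromal cells. OXTR, the oxytocin receptor, had 105, 79.5 and 91.2 against 0.175, 0.815 and 0 CPM. Of the 3, ESR1 was higher in every epithelial library, PGR was higher in every stromal library by a narrow margin, and OXTR was close to absent from stromal cells. The log2 fold changes were 1.07 (SE 0.12, adjusted p = 0.00273) for ESR1, -0.70 (SE 0.15, adjusted p = 0.0169) for PGR and 7.95 (SE 0.58, adjusted p = 0.00124) for OXTR (edgeR quasi-likelihood test, Benjamini-Hochberg adjusted). PGR was not called without replicate 2 or 3, at 0.0704 and 0.0755. The vitamin D receptor gene VDR was stromal (-4.06, SE 0.17, adjusted p = 0.000899). The glucocorticoid receptor gene NR3C1 had 98, 124 and 97.5 CPM in epithelial and 103, 102 and 102 CPM in stromal cells and was not called (-0.028, SE 0.12, adjusted p = 0.857). OXTR ranged from 7.44 to 9.81 over the fits without 1 replicate, farthest from the full fit without replicate 2.

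Among genes of prostaglandins, which serve luteolysis and pregnancy recognition in the cow, 7 of 13 were called toward epithelial (4 without replicate 3) and 2 toward stromal cells. These directions held 28.2% and 27.8% of all protein-coding genes. PTGS1, the constitutive cyclooxygenase, had 37.5, 72.5 and 68.4 CPM in epithelial and 0.262, 3.17 and 0.217 CPM in stromal cells. PTGS2, the inducible cyclooxygenase, had 91.2, 197 and 143 CPM in epithelial and 54.9, 201 and 97.1 CPM in stromal cells. PTGIS, prostacyclin synthase, had 34.4, 22.2 and 20.6 CPM in stromal and 0.0784, 0.103 and 1.78 CPM in epithelial cells. PTGS1 was thus epithelial and PTGIS stromal without overlap, whereas PTGS2 was highest in replicate 2 of both cell types and overlapped. On the log2 scale the fold changes were 5.68 (SE 0.62, adjusted p = 0.00256) for PTGS1, 0.34 (SE 0.20, adjusted p = 0.205) for PTGS2 and -5.47 (SE 0.79, adjusted p = 0.00513) for PTGIS. The transporter gene SLCO2A1 (5.34) and the receptor gene PTGER4 (4.22) were epithelial, and the synthase gene PTGDS (-5.15) was stromal. PTGS1 ranged from 5.16 to 7.58 with 1 replicate left out, moving most without replicate 2. PTGIS ranged from -8.16 to -4.72 and PTGDS from -6.46 to -4.62 when 1 replicate was left out, with the widest move without replicate 3. PTGER4 ranged from 3.20 to 4.83 over the fits without 1 replicate, farthest from the full fit without replicate 1.

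Of 12 retinoid genes, 6 were called toward epithelial and 3 toward stromal cells, against 28.2% and 27.8% of all protein-coding genes. The median of the list was 1.81 in the vehicle libraries and -0.27 in the 5 mM glucose libraries. ALDH1A3, which makes retinoic acid, had 1434, 2056 and 3081 CPM in epithelial and 138, 343 and 148 CPM in stromal cells. STRA6, the receptor that takes up retinol, had 546, 681 and 445 CPM in stromal and 41.8, 12 and 46.1 CPM in epithelial cells. RBP4, the carrier of retinol, had 104, 75.9 and 97.1 against 5.72, 2.17 and 14.4 CPM. ALDH1A3 was thus epithelial and the uptake and carrier genes stromal, without overlap, at 3.37 (SE 0.38, adjusted p = 0.00279), -4.29 (SE 0.60, adjusted p = 0.00463) and -3.96 (SE 0.45, adjusted p = 0.00282), respectively. STRA6 ranged from -4.75 to -3.55 with 1 replicate left out, moving most without replicate 2. RBP4 ranged from -4.56 to -3.50 when 1 replicate was left out, with the widest move without replicate 3.

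Genes of the insulin-like growth factor (IGF) system were split, with 3 of 10 called toward epithelial and 4 toward stromal cells (1 and 2 without replicate 1), shares near those of all protein-coding genes, 28.2% and 27.8%. IGFBP3, the main binding protein of IGFs, had 382, 1122 and 484 CPM in epithelial and 49.2, 73.1 and 40.8 CPM in stromal cells. IGFBP7 had 505, 517 and 483 CPM in stromal and 30.9, 12.9 and 49.5 CPM in epithelial cells. INSR, the insulin receptor, had 45.2, 35.7 and 43.8 CPM in epithelial and 27.4, 22.1 and 28.4 CPM in stromal cells. IGF1R, the IGF1 receptor, had 182, 146 and 191 against 230.0, 184 and 216 CPM. INSR was higher in every epithelial library, and IGF1R overlapped between the groups although stromal cells were higher within each pair. The corresponding log2 fold changes were 3.41 (SE 0.21, adjusted p = 0.000978) for IGFBP3, -4.26 (SE 0.45, adjusted p = 0.00238) for IGFBP7, 0.60 (SE 0.11, adjusted p = 0.0108) for INSR and -0.36 (SE 0.10, adjusted p = 0.0347) for IGF1R. INSR lost its call without replicate 1 (adjusted p = 0.0549) and IGF1R without any 1 of the replicates (adjusted p = 0.0806 to 0.145), with library totals in place of TMM (adjusted p = 0.0926) and with every counted gene tested (adjusted p = 0.0575).

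Mucosal genes were epithelial in 7 of 9 tested (4 without replicate 1), with 1 called toward stromal cells. MUC1, a membrane mucin of the luminal surface, had 267, 349 and 408 CPM in epithelial and 0.262, 13.9 and 0.217 CPM in stromal cells. MUC4, another membrane mucin, had 117, 236 and 169 against 0.35, 2.35 and 0 CPM. PIGR, the receptor that carries IgA across epithelia, had 4.86, 20.1 and 9.47 CPM in epithelial cells and was at 0 in all 3 stromal libraries. The mucins were high in every epithelial library, and PIGR varied most between them. The fitted log2 fold changes were 7.22 (SE 1.32, adjusted p = 0.00995) for MUC1 and 7.65 (SE 0.66, adjusted p = 0.00159) for MUC4, and PIGR was at least 40.1-fold higher against a floor of 3 counts per library. The median over the 9 genes was 7.22 with fitted values and 5.33 with PIGR at its bound. WFDC2, a secreted protease inhibitor, had 7.56 (SE 1.52, adjusted p = 0.0133), MUC20 had 7.59, and SPP1, osteopontin, overlapped (0.15, SE 0.38, adjusted p = 0.75), though without replicate 1 it was called toward epithelial cells at 0.67 (adjusted p = 0.0415). Without replicate 1, MUC1, MUC20 and WFDC2 were not called, with adjusted p-values of 0.0604, 0.0611 and 0.0621, nor was WFDC2 without replicate 3 (adjusted p = 0.0519). MUC1 ranged from 6.23 to 10.28, MUC4 from 7.13 to 9.36, WFDC2 from 6.32 to 9.66 and MUC20 from 6.71 to 10.24 over the fits without 1 replicate, farthest from the full fit without replicate 2.

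Of 12 complement genes, 2 were called toward epithelial and 5 toward stromal cells, against 28.2% and 27.8% of all protein-coding genes. The number called toward stromal cells was 2 without replicate 1. CFB, of the alternative pathway, had 239, 289 and 735 CPM in epithelial and 0.700, 5.97 and 1.08 CPM in stromal cells. C1S, a protease of the classical pathway, had 15.2, 11.8 and 17.6 CPM in stromal and 0.549, 0.207 and 2.44 CPM in epithelial cells. Both were separate without overlap, at 7.41 (SE 0.88, adjusted p = 0.00313) and -4.08 (SE 0.51, adjusted p = 0.00348). Among 17 cytokine genes, 6 were called toward epithelial and 9 toward stromal cells, against the same shares of all protein-coding genes. CXCL5, a neutrophil chemokine, had 225, 236 and 250.2 CPM in stromal and 2.59, 2.17 and 8.35 CPM in epithelial cells. CXCL8, interleukin 8, had 70.6, 188 and 89.8 against 3.37, 3.51 and 12.8 CPM. LIF, which is needed for implantation in mice, had 54.7, 70.5 and 65.5 CPM in epithelial and 6.47, 10.0 and 13.7 CPM in stromal cells. The chemokines were stromal at -6.03 (SE 0.41, adjusted p = 0.00111) and -4.29 (SE 0.59, adjusted p = 0.00449), while LIF (2.63, SE 0.23, adjusted p = 0.00166) and IL1RN, an antagonist of interleukin 1 (5.56, SE 0.65, adjusted p = 0.00303), were epithelial. CFB ranged from 6.6 to 8.88 and IL1RN from 5.05 to 7.59 with 1 replicate left out, moving most without replicate 2. C1S ranged from -5.08 to -3.69 and CXCL8 from -5.06 to -3.58 when 1 replicate was left out, with the widest move without replicate 3.

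Most interferon-stimulated genes, which the ruminant conceptus induces in the endometrium, were higher in epithelial cells although neither conceptus nor interferon was part of the treatment. Of 28 tested, 22 were called toward epithelial and 0 toward stromal cells, 21 beyond 2-fold (median 3.33). RSAD2, the antiviral protein viperin, had 16.1, 40.9 and 47 CPM in epithelial and 0, 0.181 and 0 CPM in stromal cells. MX2, an antiviral GTPase, had 6.74, 14.7 and 11.8 against 0, 0.181 and 0 CPM. IFIH1, a sensor of double-stranded RNA, had 36.9, 43.2 and 40.0 against 0.0875, 1.27 and 0 CPM. These were close to absent from all 3 stromal libraries, with no overlap, at 8.73 (SE 0.44, adjusted p = 0.000904) for RSAD2, 7.15 (SE 0.55, adjusted p = 0.00134) for MX2 and 6.39 (SE 0.67, adjusted p = 0.00235) for IFIH1. Not every gene of the response followed. IFIT1 had 33.6, 42.4 and 49.3 CPM in epithelial and 117, 129 and 38.8 CPM in stromal cells (-1.13, SE 0.44, adjusted p = 0.0842). IFIT5 overlapped between the groups too and was not called (-0.16, SE 0.12, adjusted p = 0.326). IFIT1 was called toward stromal cells without replicate 3, at -1.71 (adjusted p = 0.0048), without the replicate block (adjusted p = 0.0375) and by DESeq2 (adjusted p = 0.0289). RSAD2 ranged from 8.13 to 11.28, MX2 from 6.73 to 9.58 and IFIH1 from 5.86 to 9.28 over the fits without 1 replicate, farthest from the full fit without replicate 2. Without replicate 2, RSAD2 and MX2 were at 0 in the remaining stromal libraries, and the fitted value depends on the prior count.

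Of 7 glucose transporter genes, 2 were called toward each cell type, again near the share of all protein-coding genes. SLC2A1, the basal transporter GLUT1, had 787, 704 and 751 CPM in epithelial and 21.6, 48.4 and 33.6 CPM in stromal cells. SLC2A5, a fructose transporter, had 27.7, 80.4 and 41.6 against 0.0875, 1.45 and 0 CPM. SLC2A10 had 42.9, 42.1 and 48.3 CPM in stromal and 4.39, 2.79 and 4.22 CPM in epithelial cells. SLC2A3, the high-affinity GLUT3, had 1406, 509.7 and 436 CPM in epithelial and 591, 832 and 1158 CPM in stromal cells. Only SLC2A3 of these overlapped, with epithelial replicate 1 above all other libraries. Fitted log2 fold changes were 4.42 (SE 0.35, adjusted p = 0.00139), 6.59 (SE 0.54, adjusted p = 0.00146), -3.62 (SE 0.19, adjusted p = 0.000914) and -0.40 (SE 0.62, adjusted p = 0.606) in that order. SLC2A5 stands under 2 gene IDs, of which the one with more counts was used, and SLC2A3 was called toward stromal cells without replicate 1, at -1.21 (adjusted p = 0.0459). SLC2A5 ranged from 6.19 to 9.08 with 1 replicate left out, moving most without replicate 2.

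Few cell cycle genes were called. Of 24, 2 were called toward stromal and 0 toward epithelial cells (median -0.11), against 27.8% and 28.2% of all protein-coding genes. MKI67, a marker of cycling cells, had 34, 30.5 and 113 CPM in epithelial and 60.5, 16.9 and 33.5 CPM in stromal cells. The groups overlapped, with epithelial replicate 3 highest (0.52, SE 0.48, adjusted p = 0.402), and without replicate 1 it was called toward epithelial cells at 1.16 (adjusted p = 0.048). MCM6, of the replicative helicase, was called toward stromal cells (-0.86, SE 0.18, adjusted p = 0.0151), as was TPX2, a spindle protein (-0.91, SE 0.25, adjusted p = 0.0331), both with overlapping groups. TPX2 was not called without replicate 1 or 2 (adjusted p = 0.134 and 0.0905), without the block (adjusted p = 0.0565) or with library totals (adjusted p = 0.0615). CENPF (1.11, SE 0.52, adjusted p = 0.131) was called toward epithelial cells without replicate 1, at 1.84 (adjusted p = 0.0192), and by DESeq2 (adjusted p = 0.0474). Without replicate 3, 6 genes of the list were called toward stromal cells, and without replicate 1, 3 toward epithelial and 1 toward stromal cells.

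Markers of other cell types were looked for in the same libraries. Their counts stand against 28.2% of all protein-coding genes called toward epithelial and 27.8% toward stromal cells. Of 12 genes of pericytes and smooth muscle, 7 of the 11 tested were called toward stromal cells and 1 toward epithelial cells. ACTA2, smooth muscle actin, had 2756, 2469 and 4310.4 CPM in stromal and 71.3, 17.8 and 129 CPM in epithelial cells. DES, desmin, had 658, 177 and 106 against 14.2, 1.55 and 9.47 CPM, and it was highest in stromal replicate 1. CSPG4, of pericytes, had 236, 203 and 473 against 7.06, 0.827 and 15 CPM. Stromal libraries thus held muscle and pericyte genes at log2 fold changes of -5.86 (SE 0.55, adjusted p = 0.0019), -5.22 (SE 0.68, adjusted p = 0.00382) and -5.73 (SE 0.63, adjusted p = 0.00261), while MYOCD, a coactivator of muscle genes, was epithelial (3.31, SE 0.23, adjusted p = 0.00111). Of 10 endothelial markers, PECAM1, CDH5, TEK, CLDN5, ERG and ESAM were too low to test, KDR and TIE1 matched no symbol, and VWF (16.3, 26 and 19.7 against 2.19, 2.63 and 0.867 CPM) and EMCN (11.2, 50.6 and 83.7 against 0.787, 4.44 and 0.542 CPM) were epithelial. Of 10 leukocyte markers, 5 were tested, and all but CD74 were under 5 CPM in every library. Of the 5, 1 was called toward epithelial and 2 toward stromal cells, the latter beyond 2-fold (median -0.21). CD74, the chaperone of MHC class II, had 78.3, 199 and 52.1 CPM in epithelial and 0.175, 3.53 and 0 CPM in stromal cells (6.72, SE 0.63, adjusted p = 0.00188). Of 10 ciliated cell markers, 4 were tested and FOXJ1, their master factor, was not among them. Of these 4, 2 were called toward epithelial and 1 toward stromal cells, with log2 fold changes from -4.80 to 3.17 (median 0.069). DNAH5, a dynein of motile cilia, was among the epithelial ones (3.17, SE 0.23, adjusted p = 0.00125). The part of such cells in the results was not tested. ACTA2 ranged from -6.23 to -5.23, CSPG4 from -6.27 to -5.09 and CD74 from 6.29 to 9.26 when 1 replicate was left out, with the widest move without replicate 2. DES ranged from -6.05 to -4.62 over the fits without 1 replicate, farthest from the full fit without replicate 3.

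The same contrast was then taken from the 3 epithelial and 3 stromal libraries of the glucose experiment at 5 mM glucose, which share no library with the vehicle group. Of the 1616 genes higher in epithelial cells beyond 2-fold, 1586 (98.1%) had the same direction there, and 1376 were also called. Of the 1389 genes higher in stromal cells, 1373 (98.8%) had the same direction and 1204 were also called. Over all 12876 protein-coding genes the direction was shared by 9867 (76.6%). Markers of the other cell type were measured in those libraries too, with medians of 5.72%, 0.0106% and 0.0817% for the epithelial markers in stromal cells and of 9.77%, 2.42% and 4.97% for the stromal markers in epithelial cells. The medians hide single epithelial markers that reached 10.3%, 18.1% and 5.88% in these stromal libraries, where the summed levels were 5.34%, 3.48% and 0.808%. KRT8 and KRT18 had log2 fold changes of 4.55 and 3.21 in the glucose libraries, while KRT19 and KRT7 had 8.13 and 9.47. For the list of intermediate filament genes the median was 6.83 in the vehicle and 3.21 in the glucose libraries. A test of the difference between both contrasts, over 14371 genes in 12 libraries, called 0 genes (0%) by the edgeR quasi-likelihood test, Benjamini-Hochberg adjusted, with 1466 at an unadjusted p under 0.05 and a smallest adjusted p of 0.0782. That gene was CPNE8, a copine, with a log2 fold change of 1.20 in the vehicle and -1.75 in the glucose libraries. HASPIN, a mitotic kinase, had -4.74 and -1.51 (difference -3.23, adjusted p = 0.350).

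The other 3 genes with the smallest p in that test, LDHA, PDK1 and BNIP3L, take part in glycolysis or the response to low oxygen. LDHA, lactate dehydrogenase A, had 767, 715 and 676 CPM in epithelial and 210.3, 171 and 132 CPM in stromal cells of the vehicle group. In the glucose libraries it had 316, 217 and 493 CPM in epithelial and 274, 229 and 474 CPM in stromal cells. The groups were separate in the vehicle libraries and overlapped in the glucose libraries, with log2 fold changes of 2.04 and -0.12 in the joint fit (difference 2.16, adjusted p = 0.350). PDK1, which keeps pyruvate out of the citric acid cycle, had 2.52 and -0.97 (difference 3.49), and BNIP3L, a mitophagy receptor, had 1.69 and -0.80 (difference 2.49), both with the same adjusted p of 0.350. A list of 33 genes of glycolysis and the low-oxygen response was then drawn up after these values were seen. In the vehicle libraries 28 of the 33 were called toward epithelial and 0 toward stromal cells (median 1.67), against 28.2% and 27.8% of all protein-coding genes. The median was 0.097 in the glucose libraries. CA9, a carbonic anhydrase induced by low oxygen, had 119.9, 128 and 73.8 CPM in epithelial and 0.0875, 0.724 and 0.108 CPM in stromal cells (8.36, SE 0.42, adjusted p = 0.000904), and EGLN3, an oxygen-sensing prolyl hydroxylase, had 858, 775 and 658 against 4.37, 11.9 and 0.542 CPM (7.49, SE 0.85, adjusted p = 0.00283). GAPDH, a glycolytic enzyme often used as a reference, had 3235, 2828 and 2587 CPM in epithelial and 969, 799 and 819.6 CPM in stromal cells, a log2 fold change of 1.66 (SE 0.15, adjusted p = 0.00169), against 0.028 in the glucose libraries. CA9 ranged from 7.75 to 9.82 and EGLN3 from 6.77 to 8.36 with 1 replicate left out, moving most without replicate 2.

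**Figure D5:**
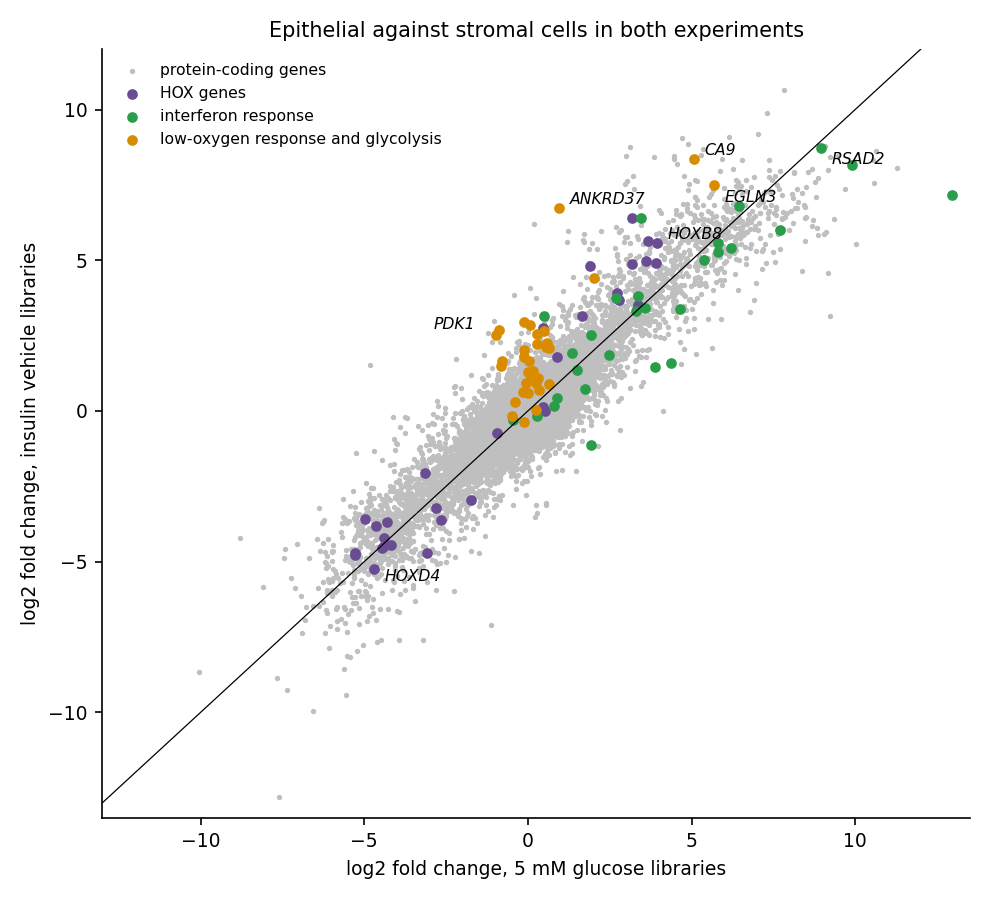
Log2 fold change of epithelial against stromal cells in the vehicle libraries (vertical axis) and in the 5 mM glucose libraries (horizontal axis) for each protein-coding gene, with the line of equal values. HOX and interferon response genes spread along the line. Of all protein-coding genes beyond 2-fold toward epithelial and stromal cells, 98.1% and 98.8% had the same sign in both experiments, which need not mean equal values. Genes of glycolysis and the low-oxygen response lie above the line by their medians (1.67 and 0.097). That list was drawn up after these values were seen, and the test of the difference called 0 genes.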

How the data were processed

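RNA of epithelial and stromal cells was sequenced by the authors from strand-specific libraries. Per the study's methods, reads were trimmed with Cutadapt, aligned to the cow genome of Ensembl with Rsubread and assigned to genes with featureCounts, and the deposited values are counts of reads per gene, not normalised. Gene symbols and types were read from the authors' tables of their own comparisons, whose means, fold changes and p-values were not used.

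From these counts, 27607 genes in 6 libraries were filtered with filterByExpr, scaled by TMM (factors 0.930 to 1.10) and fitted with edgeR 4.0.16 under R 4.3.3, with the replicate number as a block as in the study's paired design, which left 13395 genes. Log2 fold changes are epithelial against stromal cells. Adjusted p-values are those of edgeR quasi-likelihood tests, Benjamini-Hochberg adjusted over all genes tested, and the test of size was glmTreat with a null of 2-fold. Same-numbered epithelial and stromal libraries deviated together from their group means (r = 0.183, 0.236 and 0.185) and others did not (-0.18 to -0.00131), so the numbers were taken to pair the samples. The 5 mM glucose contrast and the difference of both contrasts came from a joint fit over 12 libraries. It had its own filter and TMM factors, a block for each experiment and replicate number, and no test of size. For the 5 genes with the smallest p of that difference, the vehicle values set beside the glucose values are from the joint fit. Other vehicle values are from the fit of 6 libraries. The fit of the vehicle contrast and the fit of the difference were run on simulated counts as a check of the code. Those counts had equal dispersion in all genes and no replicate effect, so they do not bear on the results here.

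The gene lists were chosen with earlier results of these data known. Named genes were drawn from the markers, the 10 largest folds in each direction among genes beyond 2-fold with at least 20 CPM in the higher group, the 5 largest differences in CPM in each direction, up to 4 called members of each list and direction with at least 5 CPM, uncalled members with at least 20 CPM in both cell types, ligands of named receptors and the 5 smallest p-values between both contrasts. MUC1 and HOXA5, HOXA6, HOXB5, HOXC4, HOXC5 and HOXC8 fell outside this rule and were chosen after their values were seen. Alternatives were no replicate block, other scalings, no filter, each replicate left out, DESeq2 1.42.0 and a null of 4-fold. Promoter sequences were not analysed here, and a few members of the lists are counted but not reported singly.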

Additional observations from a re-analysis of the deposited data

How the results depend on the processing

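The paired fit, with the replicate number as a block, called 7200 protein-coding genes, and without the replicate block 7329 were called, 3688 toward epithelial and 3641 toward stromal cells. The block changed the calls of PTCH1, TPX2, IFIT1, PTBP1, BMP1 and ACACA among the genes named. With library totals in place of TMM factors the median of all genes shifted to 0.0755, and 3799 genes were called toward epithelial and 3063 toward stromal cells, so that the epithelial share of calls went from 50.4% to 55.4%. DESeq2 called 3446 and 3245 genes. Leaving out 1 replicate gave 5069 to 5642 called genes and 1511 to 2721 beyond 2-fold, with the fewest without replicate 1, which leaves 2 pairs. With a null of 4-fold, 1479 genes passed the test of size, 857 toward epithelial and 622 toward stromal cells.

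The difference between the vehicle and glucose contrasts called 0 genes under each of the 7 alternatives run, with 507 to 2116 genes at an unadjusted p under 0.05 and smallest adjusted p-values of 0.0767 to 0.919. Genes that were not called changed the sign of their log2 fold change in places. HOXC4 had 0.12 without the block, 0.0016 with DESeq2's size factors, 0.062 with library totals and -0.51 to 0.31 over the fits that leave out 1 replicate. NR3C1 had 0.051 with library totals. Over the fits that leave out 1 replicate, HOXC5 ranged from -0.072 to 0.41, FGFR2 from -0.27 to 0.64, NR3C1 from -0.13 to 0.10, SPP1 from -0.12 to 0.67, SLC2A3 from -1.21 to 0.27 and MKI67 from -0.030 to 1.16. The cause was not tested. No called gene among those named changed direction under any alternative run. Levels under 0.235 to 0.325 CPM rest on fewer than 3 reads. The planned description of promoter sequences was not run.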

Other observations

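Genes that make fatty acids and cholesterol were higher in epithelial cells, in a list drawn up after the values were seen. Of 23 tested, 21 were called toward epithelial and 0 toward stromal cells (median 1.57), against 28.2% and 27.8% of all protein-coding genes, and the median was 1.36 in the 5 mM glucose libraries. SCD, which desaturates stearate, had 1184, 1635 and 1655 CPM in epithelial and 116, 97.7 and 95.8 CPM in stromal cells. FASN, fatty acid synthase, had 884, 1091 and 1259 against 212, 237 and 196 CPM. IDI1, of the cholesterol pathway, had 101, 83 and 112 against 17.7, 15.4 and 12 CPM. Each was higher in every epithelial library, with log2 fold changes of 3.77 (SE 0.18, adjusted p = 0.000899) for SCD, 2.24 (SE 0.15, adjusted p = 0.00107) for FASN and 2.64 (SE 0.17, adjusted p = 0.00105) for IDI1 (edgeR quasi-likelihood test, Benjamini-Hochberg adjusted). The acetyl-CoA carboxylase gene ACACA was not called (0.42, SE 0.14, adjusted p = 0.0643), though it was called toward epithelial cells without replicate 1 (adjusted p = 0.0378) and without the replicate block (adjusted p = 0.0395).

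Among 191 long noncoding RNA genes tested, 29 were higher in epithelial and 24 in stromal cells beyond 2-fold, shares near the 12.6% and 10.8% of protein-coding genes.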
